A study of Mus musculus with 24 samples.

Results

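The course of degeneration was followed inside the retinas of one mutant mouse line, using the 12 of 24 arrays that the labels mark as P347S+. They form 4 groups of 3 arrays, 1 for each month of age from 1 to 4, and all probe sets of the deposited expression table were used. The main comparison set mutant retinas of 4 months against mutant retinas of 1 month, and the groups of 2 and 3 months showed when each change arose. The other 12 arrays, from normal mice at the same 4 ages with 3 arrays each, were used to show whether age alone gave the same change. The labels call the mutants RP mutant and describe the line as transgenic for the rhodopsin change P347S. The transgene's promoter, the state of the mouse's own rhodopsin alleles and the strain were not given in the sources used here, and the labels give the sex as unknown. Nothing in the labels shows that arrays of one age are different animals, or whether retinas were pooled, so the p-values reflect no more than the spread among these samples, which may be technical.

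Rhodopsin is the light-absorbing receptor of rod photoreceptors, and mutations in it are a cause of retinitis pigmentosa, in which rods die first and cones later. As rods are lost, Müller glia and microglia respond, and the matrix and cell surfaces around them are remodelled. Glycans take part in this at many points: heparan sulfate chains bind growth factors, N- and O-glycans sit on receptors and adhesion molecules, and galectins and other lectins bind such sugars. The stated interest of the study was in glycans and glycan-binding proteins at early, middle and late stages of degeneration, with galectin-1 and galectin-3 named as the starting point. By its design text, loss is hard to detect in this line at 1 month, and a large part of the rods has gone by 4 months.

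The deposited table holds 1246 probe sets, of which 962 could be matched to 908 genes. Values are log2 RMA signals, in which a difference of 1 is a doubling. Medians of the mutant arrays lay between 5.15 and 5.29, and with 3 arrays a group the precision is limited. Of 7 rod markers only Gnb1, a transducin subunit, was found in the table, and none of 4 cone markers was, so rod loss could not be followed. Gnb1, whose probe set has suffix s, read 12.80 to 12.93 in the mutant arrays of 1 month and 12.90 to 13.04 in those of 4 months (log2 difference 0.09 ± 0.12, SE, limma adjusted p = 0.835). Normal arrays read 12.89 to 13.16 at 1 month and 13.18 to 13.23 at 4 months. The change in mutant less that in normal retinas was -0.10 and did not pass. In whole retina fewer cells of a type and less RNA per cell cannot be told apart. Grifin, a gene known from the lens, read 11.29 in mutant retinas of 2 months replicate 2 and 5.69 to 7.64 in the other 11 mutant arrays. It was also high in normal retinas of 2 months replicate 2 (11.33) and of 4 months replicate 1 (10.16). Results that change when these 3 arrays are left out are given with both values.

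Between 1 and 4 months 33 of 1246 probe sets (2.65%) changed in mutant retinas at an adjusted p under 0.05, 19 higher (1.52%) and 14 lower (1.12%). The named genes that rose were led by the decoy receptor Il13ra2, the adhesion molecule Icam1 and the receptors Notch2 and Egfr. They included the growth factors Igf2, Fgf5 and Fgf13 and the heparan sulfate enzymes Hs6st2 and Sulf1. The genes that fell were led by Bmp15, the transcription factor Prdm1 and the glycosyltransferases B4galt1, Galnt7 and Chsy1. In normal retinas over the same ages no probe set passed in limma, while 92 (7.38%) had an unadjusted p under 0.05, against 188 (15.1%) in mutant retinas. The p-values come from limma with Benjamini-Hochberg adjustment, since an exact test of 3 arrays against 3 cannot go below p = 0.1. In all 33 the arrays of the 2 ages did not overlap, as in 260 of the 1246 probe sets (20.9%). The count fell to 15 and 18 without replicates 2 and 1 of 4 months, and to 13, 9 and 16 without replicates 1, 2 and 3 of 1 month. With each array centred on its median 22 passed, and the higher share went from 57.6% to 45.5%. With array weights, which count arrays far from their group for less, 94 passed in mutant retinas (69.1% higher) and 26 in normal retinas. Among the called probe sets with a gene name, the calls of Il13ra2, Notch2, Egfr, Igf2, B4galt1 and Lgalsl held in all 6 fits that left out an array of 1 or 4 months, and those of Fgf5, Smo, Piga and Armc1 held in none.

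Il13ra2 encodes a receptor that binds interleukin-13 and is known as a decoy. It read 3.19, 2.97 and 2.89 in the 3 mutant arrays of 1 month, 3.10, 3.08 and 3.18 at 2 months, 3.11, 3.51 and 3.49 at 3 months, and 4.67, 3.64 and 4.22 at 4 months. All arrays of 4 months lay above all other mutant arrays, and normal arrays of any age read 2.86 to 3.47. The rise from 1 to 4 months was 1.17 ± 0.17 (SE, n = 3 against 3, 2.24-fold, limma adjusted p = 0.000921). Only 30.6% of it was present at 3 months. Its mean signal over all arrays was 3.28, below the median of 5.26 over probe sets, and the background is not known, so the fold is uncertain. Icam1, an adhesion molecule to which leukocytes bind, read 4.45, 4.33 and 4.52 at 1 month, 4.76, 4.70 and 4.18 at 2 months, 4.92, 4.90 and 6.09 at 3 months and 5.78, 5.10 and 5.26 at 4 months. Groups of 3 and 4 months lay above those of 1 and 2 months, and even the lowest mutant array (4.18) was above every normal array (3.52 to 4.16). The rise was 0.95 ± 0.23 (adjusted p = 0.0289), and it no longer passed in 4 of the 6 fits that left out an array of 1 or 4 months.

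Among receptors of growth and fate signals, Notch2 read 7.62 to 8.03 at 1 month, 7.51 to 7.75 at 2 months, 8.15 to 8.69 at 3 months and 8.65 to 8.94 at 4 months. The arrays of 3 and 4 months were all above those of 1 and 2 months, and the rise from 1 to 4 months was 0.91 ± 0.17 (limma adjusted p = 0.00536). Egfr, the receptor of epidermal growth factor, read 5.38, 5.78 and 5.56 at 1 month, 5.49, 5.44 and 5.33 at 2 months, 6.01, 5.96 and 6.13 at 3 months, and 6.46, 6.32 and 6.05 at 4 months. It too was high in every array of 3 and 4 months, while the normal arrays read 5.21 to 5.53 at all ages. The rise was 0.70 ± 0.11 (adjusted p = 0.00104), but a second probe set of Egfr read 0.11 and did not pass (adjusted p = 0.791). Gfra2, a co-receptor of the neurotrophic ligand neurturin, rose by 0.47 ± 0.11 (adjusted p = 0.0221) on one probe set and read 0.41 on another that did not pass (adjusted p = 0.0912). Smo, the signal transducer of hedgehog, rose by 0.47 ± 0.12, the Wnt receptor Fzd5 by 0.48 ± 0.11 and the BMP receptor Bmpr1b by 0.51 ± 0.12. The probe sets of Notch2, Fzd5, Bmpr1b, Fgf5, Tenm4 and Pgm2l1 have suffix s, the called one of Gfra2 has suffix x and that of Hyal1 suffix a, so they may not be specific to the gene or transcript named.

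**Figure D1:**
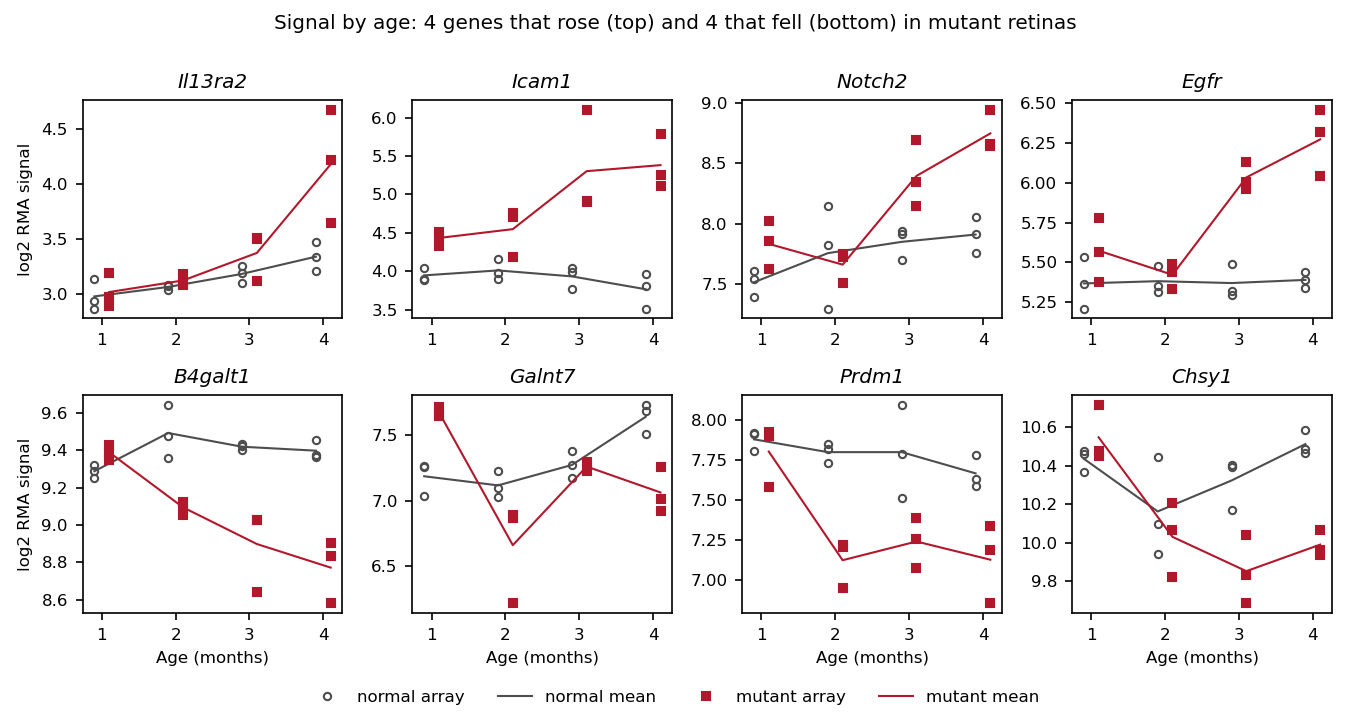
Log2 RMA signal (vertical axes, each with its own range) against age in months for 4 genes that rose and 4 that fell in mutant retinas, with filled squares for mutant arrays, open circles for normal arrays and lines through the group means. Egfr sits at 5.96 or above in all mutant arrays of 3 and 4 months, and B4galt1 at 9.12 or below in all mutant arrays from 2 months on.

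Of the ligands, Igf2, an insulin-like growth factor, read 9.76, 9.78 and 9.73 at 1 month, 10.20, 9.89 and 10.18 at 2 months, 10.16, 10.12 and 10.07 at 3 months, and 10.31, 10.62 and 10.15 at 4 months. Each later mutant array was above each of 1 month, and the rise by 4 months was 0.61 ± 0.10 (limma adjusted p = 0.00317). Fgf5, a fibroblast growth factor, rose by 0.69 ± 0.16, and Fgf13, a relative that acts inside cells on sodium channels, by 0.39 ± 0.09 (adjusted p = 0.0251 for both). Of the 45 probe sets of growth factors these 3 (6.67%) rose and none fell, with a median difference of 0.10 against 0.03 over all probe sets. Of 19 for growth factor receptors 2 (10.5%) rose and none fell, with a median of 0.11, where 2.65% of all probe sets were called and 1.52% were called higher.

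Heparan sulfate is the chain through which many growth factors reach their receptors. Hs6st2, which adds 6-O-sulfates to it, read 6.95, 7.14 and 7.44 at 1 month, 6.79, 6.60 and 6.69 at 2 months, 7.33, 7.48 and 7.37 at 3 months and 7.74, 7.72 and 7.66 at 4 months. The gene thus went down before it went up, and the arrays of 4 months were the highest of all 12. Its rise from 1 to 4 months was 0.53 ± 0.12 (limma adjusted p = 0.0180). Sulf1, which removes 6-O-sulfates at the cell surface, rose by 0.43 ± 0.11 (adjusted p = 0.0289), from 8.84 to 9.12 at 1 month to 9.31 to 9.53 at 4 months. The 29 genes of heparan sulfate synthesis held these 2 rises (6.9%, against 1.52% of all probe sets called higher) and no fall, with a median of 0.06 against 0.03 over all. Hyal1 and Arsb, lysosomal enzymes that break down hyaluronan and dermatan sulfate, rose by 0.63 ± 0.13 and 0.49 ± 0.12. B4galt4, a galactosyltransferase, rose by 0.43 ± 0.10, the teneurin Tenm4 by 0.56 ± 0.13 and Pgm2l1, a glucose bisphosphate synthase, by 0.55 ± 0.13. The remaining probe set that rose has no gene name here. Its rise of 1.01 lay between those of Il13ra2 and Icam1.

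B4galt1, which adds galactose to N-glycans, read 9.35, 9.39 and 9.43 at 1 month, 9.12, 9.06 and 9.11 at 2 months, 9.03, 8.64 and 9.03 at 3 months, and 8.90, 8.83 and 8.58 at 4 months. Every array of 1 month was above every array of 2 months, those of 4 months were all below those of 2 months, and normal arrays read 9.25 to 9.64. From 1 to 4 months it fell by 0.62 ± 0.10 (limma adjusted p = 0.00104). Galnt7, which starts or extends O-GalNAc glycans, read 7.72, 7.66 and 7.64 at 1 month, 6.87, 6.89 and 6.22 at 2 months, 7.22, 7.27 and 7.29 at 3 months and 7.01, 6.92 and 7.25 at 4 months. It was thus lowest at 2 months, came back in part, and was 0.61 ± 0.13 lower at 4 months than at 1 month (adjusted p = 0.0166). Chsy1, a chondroitin synthase, read 10.45 to 10.72 at 1 month and 9.69 to 10.21 at all later ages, and fell by 0.56 ± 0.12 (adjusted p = 0.0166).

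The stretch of 250 bases before the start of transcription is shown for Il13ra2, Egfr and B4galt1, the 3 genes with the smallest p-values between 1 and 4 months. The sequences are those of RefSeq on mouse build GRCm38.p6, and lie at chrX:147429193-147429442 (minus strand), chr11:16751953-16752202 (plus strand) and chr4:40853985-40854234 (minus strand). Capitals mark matches on either strand to a TATA box (TATAAA), a GC box (GGGCGG), a CRX-type site (TAATCC, known from photoreceptor genes), an AP-1-type site (TGANTCA) and a STAT-type site (TTCNNNGAA).
Il13ra2: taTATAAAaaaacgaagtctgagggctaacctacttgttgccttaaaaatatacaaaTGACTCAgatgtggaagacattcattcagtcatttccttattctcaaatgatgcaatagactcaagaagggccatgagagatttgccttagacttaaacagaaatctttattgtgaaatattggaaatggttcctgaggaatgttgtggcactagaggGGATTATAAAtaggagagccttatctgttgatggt
Egfr: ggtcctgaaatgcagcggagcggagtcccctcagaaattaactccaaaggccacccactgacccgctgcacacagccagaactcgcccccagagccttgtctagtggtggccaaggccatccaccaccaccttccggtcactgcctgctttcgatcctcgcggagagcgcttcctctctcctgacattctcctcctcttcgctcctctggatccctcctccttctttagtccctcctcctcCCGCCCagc
B4galt1: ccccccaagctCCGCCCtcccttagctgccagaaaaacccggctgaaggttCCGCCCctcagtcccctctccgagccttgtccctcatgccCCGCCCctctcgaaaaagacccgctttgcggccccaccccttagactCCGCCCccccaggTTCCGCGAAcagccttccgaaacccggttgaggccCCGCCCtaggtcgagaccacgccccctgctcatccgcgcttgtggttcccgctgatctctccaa
Il13ra2 held 2 TATA boxes, 1 CRX-type site whose letters overlap the second of them, and 1 AP-1-type site. Egfr held 1 GC box, and B4galt1 held 5 GC boxes and 1 STAT-type site. Over 27024 promoter windows of the same length 13.0% held a TATA box, 33.0% a GC box, 6.36% the CRX-type, 6.85% the AP-1-type and 7.14% the STAT-type letters. Of the 16 genes that rose and had a window, 3, 8, 1, 1 and 1 held these in the same order, and of the 11 that fell, 2, 7, 0, 1 and 2. A match is a stretch of letters and was not measured as a binding site here.

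Prdm1, a transcription factor that favours photoreceptor over bipolar fate in the developing retina, read 7.58, 7.93 and 7.90 at 1 month and 6.86 to 7.39 in the 9 later mutant arrays. The fall was present in full at 2 months, where the difference was -0.68, against -0.67 ± 0.14 at 4 months (limma adjusted p = 0.0107). Bmp15, a growth factor known from the ovary, read 6.56, 6.68 and 6.59 at 1 month and 5.29 to 6.28 later. It fell by 0.83 ± 0.20 (adjusted p = 0.0251), on a probe set with suffix s, and in normal retinas it read 5.18 to 5.98, below the mutant arrays of 1 month. Lgalsl, a galectin-like protein, fell by 0.42 ± 0.08 (adjusted p = 0.00536), from 10.74 to 10.82 at 1 month to 10.22 to 10.55 at 4 months.

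Alg13 and Alg10b, which act on the lipid-linked N-glycan precursor, fell by 0.44 ± 0.10 and 0.41 ± 0.09 (the probe set of Alg10b has suffix s). They were 2 of 14 precursor genes (14.3%, against 1.12% of all probe sets called lower), none of which rose, and the median of the 14 was -0.02. Piga, of the first step of GPI anchor synthesis, fell by 0.38 ± 0.10 (limma adjusted p = 0.0420). Gpc2, a GPI-anchored heparan sulfate proteoglycan, fell by 0.51 ± 0.11, the only one called of 28 proteoglycan core proteins, whose median was 0.15. Slc35f5, a member of the solute carrier family that holds nucleotide sugar transporters, fell by 0.52 ± 0.11. Armc1 and Arfgef1, the latter an exchange factor of Golgi traffic, fell by 0.29 ± 0.08 and 0.27 ± 0.07, and 1 probe set that fell has no gene name here.

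The galectins with which the study began did not pass in mutant retinas. Lgals1 (galectin-1) read 8.56, 8.62 and 8.58 at 1 month and 9.23, 9.26 and 8.32 at 4 months, a difference of 0.35 ± 0.33 (limma adjusted p = 0.742) with replicate 3 below all arrays of 1 month. Lgals3 (galectin-3) read 6.37, 6.52 and 6.30 at 1 month and 6.94, 7.23 and 6.89 at 4 months. These did not overlap, and the difference was 0.62 ± 0.36 (adjusted p = 0.449). With the spread taken from the 6 arrays of these ages alone the adjusted p was 0.0309. At 2 months both were highest in replicate 2, the array with the high Grifin signal, at 9.89 for Lgals1 and 8.06 for Lgals3. Both probe sets have suffix s. Of 10 galectin probe sets 1 fell (Lgalsl) and none rose, and the median was 0.07.

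Among probe sets matched to a gene, most other families held no called member between 1 and 4 months. Probe sets without a gene name are in no family here, so a member among them would be missed. None of 54 probe sets of C-type lectins, 11 of siglecs, 32 of chemokines, 22 of chemokine receptors, 35 of interleukins and related ligands, 19 of sialyltransferases or 14 of fucosyltransferases passed in limma. At an unadjusted p under 0.05 the counts in this order were 5, 0, 4, 0, 2, 9 and 8, where 15.1% of all probe sets had such a p. Among the genes closest to the threshold, Met, the receptor of hepatocyte growth factor, read 0.75 ± 0.21 higher (limma adjusted p = 0.0602). St8sia2, which builds polysialic acid, read 0.60 ± 0.18 higher (adjusted p = 0.0849), and Hk1, a hexokinase, -0.90 ± 0.27 (adjusted p = 0.0795). Fut10, of the fucosyltransferase family, read -1.18 ± 0.40 (adjusted p = 0.128) on one probe set and -0.29 on another. The probe set of Met has suffix s.

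Markers of other cells gave the following values. Of 12 microglial marker genes 6 were measured, by 8 probe sets, and none was called in limma, with 1 at an unadjusted p under 0.05. Their mean log2 signal was 4.72 to 4.84 in the mutant arrays of 1 month, 4.60 to 4.95 at 2 months, 4.78 to 5.26 at 3 months and 4.85 to 5.07 at 4 months. The highest array of 1 month (4.841) and the lowest of 4 months (4.852) almost met. In normal arrays the mean was 4.29 to 4.52. Csf1r, the receptor of the microglial growth factor CSF1, read 0.56 ± 0.19 higher at 4 than at 1 month (limma adjusted p = 0.118), and the chemokine receptor Cx3cr1 0.37 ± 0.20 (adjusted p = 0.397). Of 14 markers of reactive Müller glia and astrocytes 4 were measured, and their mean was 5.72 to 5.89 at 1 month, 5.45 to 6.25 at 2 months, 5.90 to 6.52 at 3 months and 6.20 to 6.44 at 4 months, against 4.94 to 5.59 in normal arrays. Icam1 was the 1 called, Vcam1 read 0.42 ± 0.17 (adjusted p = 0.240), Cd44 0.70 ± 0.50 (adjusted p = 0.626) and Fgf2 -0.23 ± 0.10 (adjusted p = 0.281). The 4 measured markers of pigment epithelium, choroid and connective tissue averaged 4.52 to 4.87 at 1 month, 4.65 to 4.78 at 2 months, 4.90 to 5.63 at 3 months and 4.72 to 5.50 at 4 months. Dcn, the connective tissue proteoglycan decorin, read 6.51 in replicate 3 of 4 months and 4.27 and 4.42 in the others, and its difference was 0.68 ± 0.51 (adjusted p = 0.653). The part of these cells in the changes above was not tested.

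The ages at which the called genes moved were read from the group means, with no test of a difference in timing. Of the 19 probe sets that rose, the largest step was from 2 to 3 months in 13, from 1 to 2 months in 4 and from 3 to 4 months in 2 (Il13ra2 and Sulf1). In 8 of them the group mean at 2 months was below that of 1 month. The median share of the change from 1 to 4 months that was present was 9.07% at 2 months and 75.6% at 3 months. Of the 14 that fell, the largest step was from 1 to 2 months in 13 and from 2 to 3 months in 1 (Slc35f5). The median share present was 82.2% at 2 months and 81.3% at 3 months, with lower shares at 2 months for Slc35f5 (34.3%), Alg13 (44.2%) and B4galt1 (47.7%). Among the risers Smo (102%), the probe set with no gene name (80.6%), Bmpr1b (77.0%) and Igf2 (55.5%) had higher shares at 2 months than their median. For the 111 probe sets that rose from 2 to 3 months, the arrays of 2 months read low in normal retinas too. Those probe sets were chosen for that mutant step, and the same was not examined for the 19 and 14 here. The part of the arrays of 2 months in the timing of rises and falls was not tested. These shares use the same arrays of 1 month as the change itself. The step from 2 to 3 months shares no array with it: there all 19 risers had a positive difference and 11 passed, against 8.91% of all probe sets that passed as higher in that step. Both tests take the spread of a probe set from the same 24 arrays, so members chosen for a small p may pass more readily there. Of the 14 that fell, 7 had a positive difference there, 1 passed as higher (Galnt7) and none as lower.

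**Figure D2:**
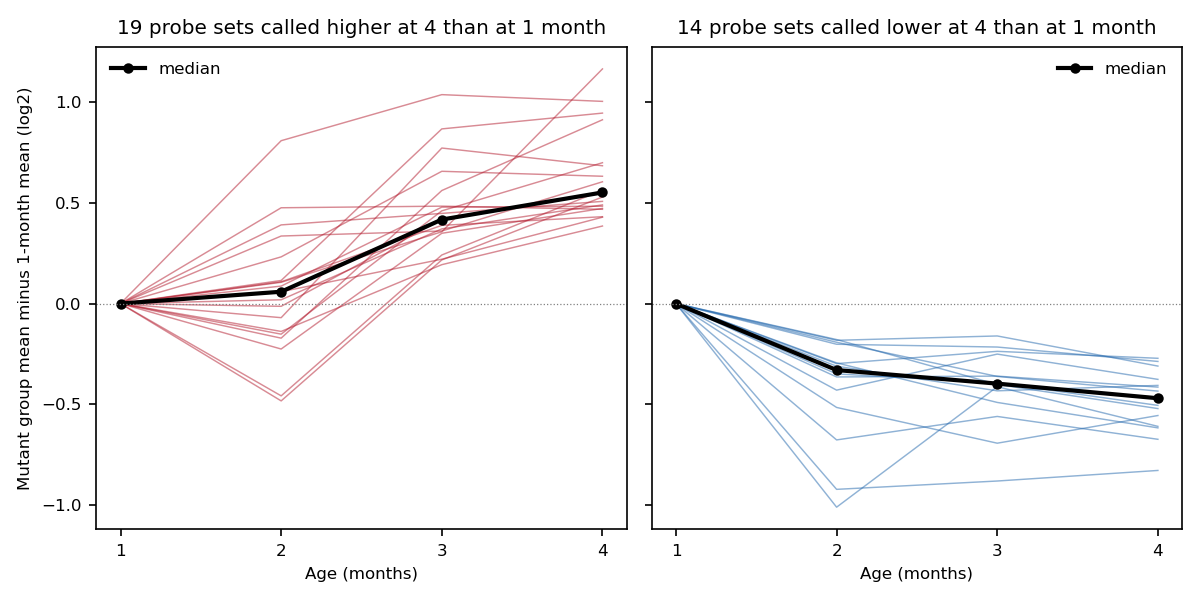
Group mean minus the mean at 1 month (log2, vertical axis) against age in months in mutant retinas, with a thin line for each of the 19 probe sets called higher (left) and the 14 called lower (right) at 4 months and a thick line for their median. At 2 months the median line of the risers is near 0, with 8 of the 19 below it, Hs6st2 as low as -0.48 and Smo already at 0.48. All 14 fallers lie below 0 by then, from Slc35f5 at -0.18 to Galnt7 at -1.01.

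Between 1 and 2 months 45 probe sets (3.61%) passed in mutant retinas, 5 higher (0.401%) and 40 lower (3.21%). Among the largest falls were those of Galnt7 (-1.01 ± 0.13), of the fucosyltransferase Fut11 (-0.93 ± 0.18), of Bmp15 (-0.92 ± 0.20), of the scaffold protein Magi2 (-0.76 ± 0.13) and of Gnpnat1 (-0.75 ± 0.16), an enzyme of UDP-GlcNAc synthesis. Also lower were the Notch ligands Jag1 and Jag2, the growth factors Igf1 and Bdnf and the receptors Igf1r, Igf2r and Il6st, named here after their values were seen. The named genes that rose were Smo (0.48 ± 0.12), Renbp (0.43 ± 0.12), Flt3l (0.34 ± 0.09) and Il11 (0.29 ± 0.08), the last 2 of them cytokines. Normal retinas gave 16 calls in this step (1.28%), 9 higher and 7 lower. The test of the difference between genotypes in this step called none in limma, with 138 (11.1%) at an unadjusted p under 0.05. The mutant count was 5 without replicate 3 of 2 months, 21 without replicate 2, and 28, 19 and 7 without replicates 1, 2 and 3 of 1 month. Without the 3 arrays of high Grifin signal it was 18, 1 higher and 17 lower. Most of the named rises thus did not pass there. With array weights the mutant count was 91, and with quantile normalization the higher share went from 11.1% to 34%.

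From 2 to 3 months 134 probe sets (10.8%) passed, 111 higher (8.91%) and 23 lower (1.85%). The test of the difference between genotypes in this step, added after seeing the data, called 2 (0.161%), Tgfbr3 and Igfbp5. Neither passed without the 3 arrays of high Grifin signal. The rises named for this step are thus changes in mutant retinas, and for nearly all a difference from normal retinas was not shown. Among the largest rises were those of B3gat2 (1.01 ± 0.22), a glucuronyltransferase of the HNK-1 epitope, of the sulfotransferase Chst2 (1.01 ± 0.14), of Magi2 (0.87 ± 0.13), of Fgf5 (0.84 ± 0.16) and of the receptor phosphatase Ptprt (0.84 ± 0.18). Chst2 read 8.28, 8.15 and 8.25 at 1 month, 7.97, 7.59 and 7.55 at 2 months, 8.50, 8.67 and 8.97 at 3 months and 8.65, 8.25 and 8.56 at 4 months, so that it dipped at 2 months and then passed its first level in most arrays. The largest falls were of Tmsb10 (-1.05 ± 0.28), an actin-binding thymosin on a probe set with suffix s, of Ncstn (-0.59 ± 0.18), a subunit of gamma-secretase, of the activin receptor Acvr2b (-0.59 ± 0.16), of the proteasome subunits Psma1 (-0.48 ± 0.15) and Psmc5 (-0.33 ± 0.09) and of Gbf1 (-0.45 ± 0.12), a regulator of Golgi traffic.

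Most calls of this step were rises over the whole table, so the counts of the gene groups are given with the share called beside 10.8% over all probe sets. The 111 that rose had a median mean signal of 7.43, against 5.26 over all probe sets. With probe sets below the median signal left out, the median difference of this step was 0.09, against -0.0006 with all. The shares and medians below are not matched for signal, and its part in them was not tested. Of 29 genes of heparan sulfate synthesis 8 rose (27.6%): Hs6st2 (0.70 ± 0.12), Hs3st1 (0.43 ± 0.09), Hs2st1 (0.40 ± 0.09), Sulf2 (0.39 ± 0.10), Ndst1 (0.36 ± 0.11), Extl2 (0.32 ± 0.10), Glce (0.31 ± 0.10) and Hs3st5 (0.31 ± 0.08), enzymes of which Extl2 acts near the linkage region, Glce epimerizes the chain, Sulf2 removes and the others add sulfates. Their median was 0.13, and with quantile normalization 3 rose and 2 fell. Of 28 proteoglycan core proteins 5 rose (17.9%), among them agrin (Agrn, 0.56 ± 0.13), the TGF-beta co-receptor Tgfbr3 (0.80 ± 0.18) and the phosphatase Ptprz1 (0.47 ± 0.12), with a median of 0.30 against -0.0006 over all probe sets. In the Notch pathway 6 of 19 were called (31.6%), and those that rose were Dll1 (0.74 ± 0.15), Notch2 (0.73 ± 0.17), Notch1 (0.69 ± 0.14), Jag2 (0.42 ± 0.09) and Hes1 (0.35 ± 0.11), while Ncstn fell, with a median of -0.01 over the 19. Of 19 probe sets of growth factor receptors 5 rose, for Egfr, Igf1r, Igf2r and Gfra2 (by both its probe sets), and Erbb3 fell (31.6% called). Of 45 growth factor probe sets 6 rose (13.3%, near the share over all), for Igf1 (0.65 ± 0.12), Fgf5, Fgf9 (both its probe sets), Fgf13 and Fgf14. Of 14 probe sets for chondroitin and dermatan sulfate synthesis 4 rose (28.6%), for Dsel (0.67), Ust (0.56 and 0.45) and Csgalnact1 (0.43). Among 40 of TGF-beta and BMP ligands and receptors 6 rose, led by Tgfbr3, Tgfbr2 (0.67, with -0.06 on its other probe set) and Acvr1 (0.49), and Acvr2b fell (17.5% called). Of 26 galactosyl- and N-acetylglucosaminyltransferase probe sets 5 rose, led by B4galt6 (0.71), and B3gnt6 fell (-0.31), 23.1% in all. Shares were below that of all probe sets for cytokine receptors (3 of 53, 5.66%), chemokines (1 of 32, 3.12%) and C-type lectins (1 of 54, 1.85%). With quantile normalization 2 of the galactosyltransferase list rose and 3 fell, and in the Notch pathway 4 rose and 3 fell. Without the 3 arrays of high Grifin signal the probe sets that rose were 2 for heparan sulfate synthesis, 3 for proteoglycan cores, 3 for the Notch pathway, 3 for growth factor receptors, 4 for growth factors, 2 for chondroitin sulfate, 2 for TGF-beta and BMP and 3 for the galactosyltransferase list. The genes in these lists were named because they passed, after their values were seen. None of the 8 microglial probe sets was called in this step in limma, and all 8 had a positive difference, with a median of 0.22.

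The arrays of 2 months enter both steps, and most of the 111 probe sets that rose went down before. Their median difference was -0.27 from 1 to 2 months, 0.48 from 2 to 3 months and 0.20 from 1 to 3 months, and 4 of them passed as higher in that last comparison, in which 17 of all probe sets passed (1.36%), 7 of them higher (0.562%). Averaged over the 111 and centred on each probe set's mean over the 24 arrays, the mutant arrays of 1 month stood at 0.05, 0.05 and 0.10, those of 2 months at -0.12, -0.28 and -0.30, those of 3 months at 0.18, 0.28 and 0.40 and those of 4 months at 0.27, 0.19 and 0.23. The normal arrays of 2 months, at -0.21, -0.20 and -0.18, were also the lowest of their genotype, the others lying between -0.13 and 0.02. The 111 were chosen for the difference between 2 and 3 months in mutant retinas, so the mutant values are a description. In normal retinas their median step from 2 to 3 months was 0.17, and 1 probe set of all 1246 passed there (0.0803%). At an unadjusted limma p under 0.05 this step held 214 probe sets in normal and 302 in mutant retinas. The median normal step over all probe sets was 0.07. Whether something common to the arrays of 2 months plays a part was not tested. The count was 48 without replicate 3 of 3 months, 77 without replicate 2, and 62 and 67 without replicates 2 and 3 of 2 months. It was 55 without the 3 arrays of high Grifin signal, 50 higher and 5 lower, and 5 with the 6 arrays fitted alone. Thus not all of the falls named for this step passed without those 3 arrays. The higher share was 82.8%, and 68.9% and 62.3% with arrays centred or quantile normalized.

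**Figure D3:**
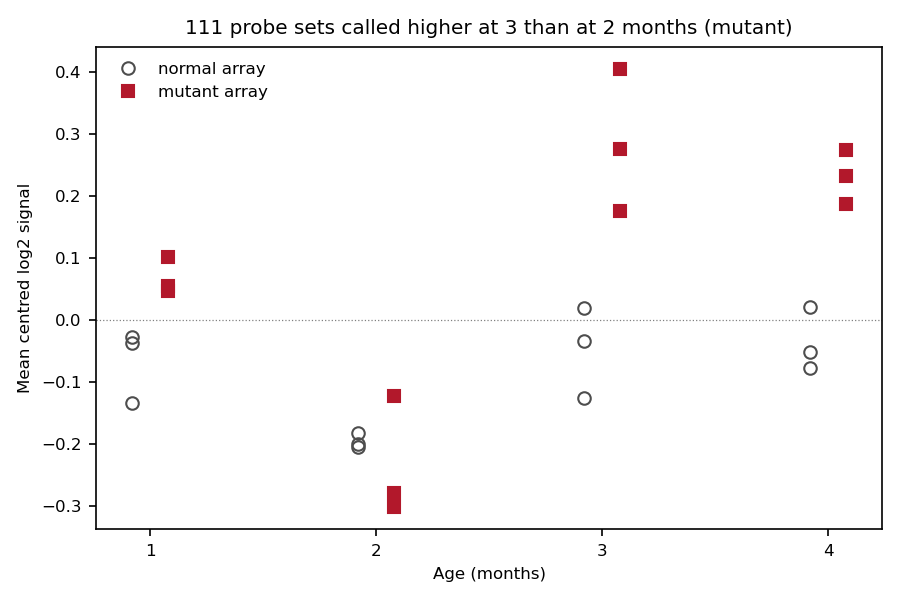
Mean over the 111 probe sets called higher at 3 than at 2 months in mutant retinas, each centred on its mean over the 24 arrays (log2, vertical axis), against age in months, with filled squares for mutant and open circles for normal arrays. Arrays of 2 months are the lowest of both genotypes, and the mutant arrays of 3 and 4 months lie above all others, between 0.18 and 0.40.

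From 3 to 4 months no probe set passed in limma, and 76 (6.1%) had an unadjusted p under 0.05. The smallest p-values were those of Il13ra2 (0.81 ± 0.17, adjusted p = 0.109), Magi2 (-0.58 ± 0.13, adjusted p = 0.121) and the sialyltransferase St6galnac4 (-0.28 ± 0.07, adjusted p = 0.355). Leaving out replicate 3 or 2 of 4 months gave 2 calls and 1 call.

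**Figure D4:**
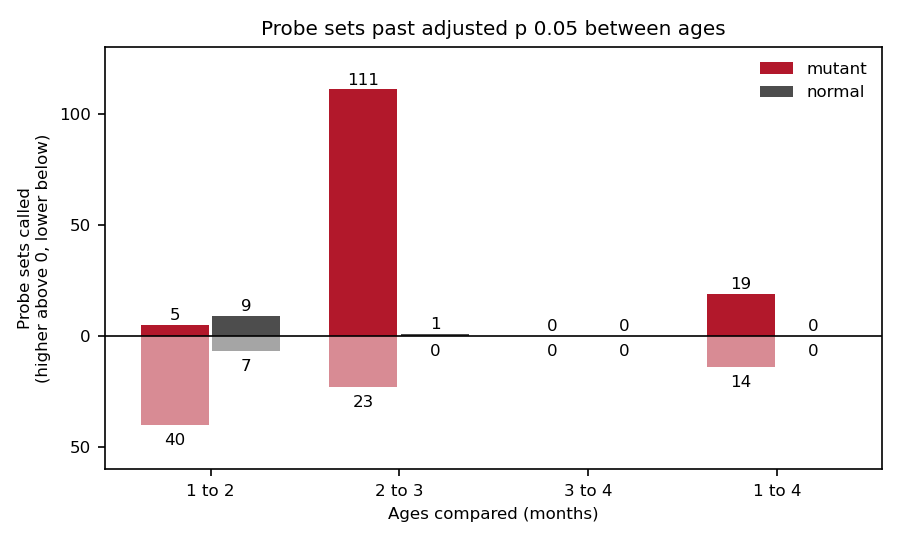
Number of probe sets past an adjusted p of 0.05 (vertical axis, higher above 0 and lower below) for each pair of ages compared, in mutant (red) and normal (grey) retinas. Mutant calls are mostly lower from 1 to 2 months (40 of 45) and mostly higher from 2 to 3 months (111 of 134).

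Over all 12 mutant arrays a linear slope on age passed for 83 probe sets (6.66%), 63 rising (5.06%) and 20 falling (1.61%). The smallest p-values were those of Egfr (0.27 ± 0.03 per month on the log2 scale, limma adjusted p = 0.000153), Il13ra2 (0.38 ± 0.05), B4galt1 (-0.21 ± 0.03), Notch2 (0.35 ± 0.05), Hs6st2 (0.23 ± 0.04), Gfra2 (0.20 ± 0.03), Hyal1 (0.23 ± 0.04) and Tenm4 (0.24 ± 0.04). The slopes of Egfr and Gfra2 are those of the probe sets called between 1 and 4 months. Genes with a slope and no call between 1 and 4 months, named after their values were seen, were the morphogen Shh (0.17 ± 0.03, adjusted p = 0.00452), the interleukin-1 receptor Il1r1 (0.20 ± 0.05), the chemokines Cxcl12 (0.21 ± 0.05) and Cxcl13 (0.15 ± 0.04) and the polysialyltransferase St8sia2 (0.21 ± 0.06). Dhh, another hedgehog ligand, fell by 0.19 ± 0.05 and 0.21 ± 0.06 per month on its 2 probe sets. Of 19 sialyltransferase probe sets 3 rose and none fell, and of 14 probe sets for chondroitin and dermatan sulfate synthesis 3 rose, for Ust (both its probe sets) and Dsel, and Chsy1 fell. Of 14 fucosyltransferase probe sets Fut9 (0.14), Fut8 (0.12) and Fut4 (0.11, by 1 of its 3 probe sets) rose and Fut10 (-0.44, by 1 of its 2) fell, and of 19 for growth factor receptors 4 rose. Without mutant replicate 2 of 1 month 24 slopes passed, and 42 without replicate 1 of 4 months. With array weights 134 passed. With quantile normalization the rising share went from 75.9% to 49.5%.

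Set beside normal retinas, the 19 probe sets that rose had a median change from 1 to 4 months of 0.55 in mutant and 0.08 in normal retinas, where they ranged from -0.18 to 0.55. The 14 that fell had medians of -0.47 and -0.02, with normal values from -0.38 to 0.45. The members were chosen on the mutant values, so the gap between these medians is a description. Whether the change differs between genotypes was tested for all probe sets, and 3 (0.241%) passed in limma, with 142 (11.4%) at an unadjusted p under 0.05. With array weights 81 passed, 54 of them higher in mutant retinas, while none of the 3 was higher. Galnt7 fell by 0.61 in mutant retinas and read 0.45 higher in normal ones, from 7.26, 7.26 and 7.04 to 7.68, 7.73 and 7.51 (difference of changes -1.06 ± 0.19, adjusted p = 0.0152). B4galt1 changed by -0.62 in mutant retinas and read 0.11 in normal ones (-0.73 ± 0.14, adjusted p = 0.0166). Fryl, a relative of the Drosophila gene furry, read -0.13 and 0.34 (-0.48 ± 0.10, adjusted p = 0.0348). Without the 3 arrays of high Grifin signal none of the 3 passed, at adjusted p = 0.0561, 0.0646 and 0.0646, and the differences were -1.04, -0.74 and -0.50. The count was 24 without mutant replicate 3 of 4 months, 0 without normal replicate 2 of 4 months or replicate 3 of 1 month, and 6 without normal replicate 1 of 4 months or replicate 2 of 1 month. The test of linear slopes, added after seeing the data, called 15 (1.2%), 8 of them higher in mutant retinas, and 87 with array weights. Without the 3 arrays of high Grifin signal it called none in limma. With arrays centred 1 of the 6 calls for the change from 1 to 4 months was higher, and with quantile normalization 8 of 15.

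**Figure D5:**
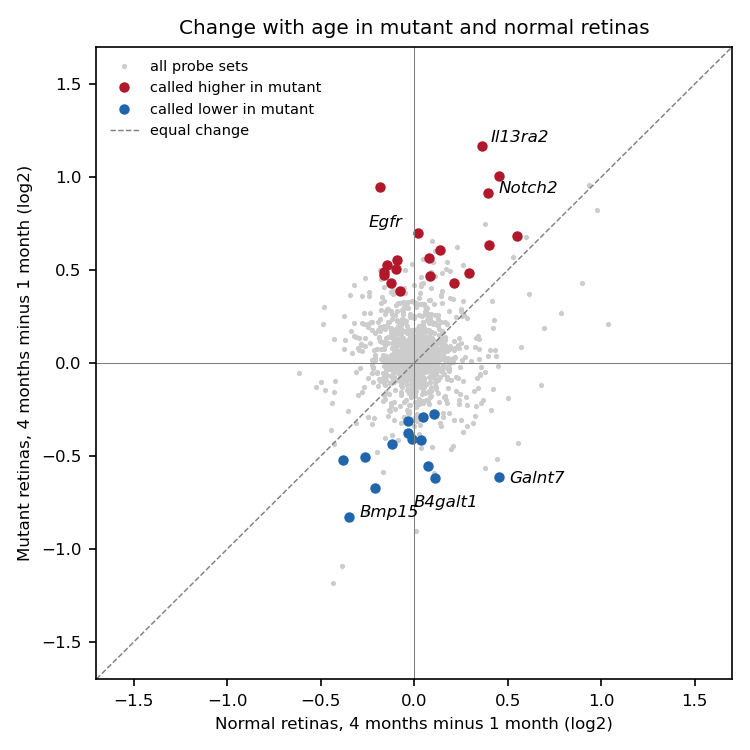
Change from 1 to 4 months in mutant retinas (vertical axis, log2) against that in normal retinas (horizontal axis, log2) for 1246 probe sets, with those called higher (red) or lower (blue) in mutant retinas marked and a dashed line of equal change. The blue point of Galnt7 lies at 0.45 in normal and -0.61 in mutant retinas, and all 19 red points lie above the dashed line. The red points were chosen for their rise in mutant retinas, so their place is a description. None of the 19 passed the test of a difference between genotypes.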

How the data were processed

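Retinal RNA was measured on a focused Affymetrix array. The authors made the deposited log2 values with RMA, per the submitters' processing notes, with further steps not given in the sources used here. Trizol was used for the RNA, which was hybridised as biotin-labelled cRNA, per the labels. No value was scaled again. Of 1246 probe sets 284 matched no gene in the RefSeq table, 261 of them with UCSC identifiers, and all were tested. Suffixes s (237), x (38) and a (91) mark probes that may match other transcripts.

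In R 4.3.3 with limma 3.58.1, a model of 8 group means was fitted to 24 arrays (16 residual degrees of freedom, prior 4.37), and contrasts between ages were tested, 2-sided, with Benjamini-Hochberg adjustment over 1246 probe sets and a threshold of 0.05. The slope weights ages equally spaced. Errors are limma standard errors, and the fit was tested on simulated data. Equal replicate numbers did not pair the arrays of different ages: over 18 pairs their deviations correlated at -0.34 to 0.14, with 1 above 0.1.

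The text names, among called probe sets without overlap, the 15 largest rises and falls from 1 to 4 months, 6 of each per step, 8 slopes by smallest p, up to 10 differences between genotypes and, for lists, up to 4 members by smallest p, and where nothing passed the 3 with the smallest p. Lgals1, Lgals3 and tissue markers were added, and other names are said to be chosen after their values were seen. One gene that the rule names is not reported here. The members and lists were chosen with earlier results of these data known. Alternatives were other scaling, filters, variance models, arrays and thresholds, the replicate block, and each array left out in turn. The arrays without those of 2 months, and the differences between genotypes in slope and by step, were added after seeing the data.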

Additional observations from a re-analysis of the deposited data

Results flagged for a closer look

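In 20 comparisons of 17 genes the change with age differed between mutant and normal retinas by a test of the difference itself (limma, adjusted over 1246 probe sets). Between 1 and 4 months these were Galnt7 (-1.06 ± 0.19, mutant minus normal), B4galt1 (-0.73 ± 0.14) and Fryl (-0.48 ± 0.10). The tests of slopes and of single steps were added after seeing the data.

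The linear slope on age differed for 15 probe sets (1.2%), 8 higher and 7 lower in mutant retinas. It was more negative in mutant retinas, in log2 per month, for Galnt7 (-0.27), B4galt1 (-0.23), the chondroitin synthase Chsy1 (-0.22), the O-glycan transferase Galnt4 (-0.22), the BMP receptor Bmpr1a (-0.19), the galectin-like Lgalsl (-0.17) and Fryl (-0.15), with adjusted p from 0.0162 to 0.0426. It was more positive for the heparan sulfate 3-O-sulfotransferases Hs3st5 (0.16) and Hs3st1 (0.17), the morphogen Shh (0.20), Slc35f1 (0.20), the receptor Gfra2 (0.22), the galactosyltransferase B4galt5 (0.22), the heparan sulfate 6-O-sulfotransferase Hs6st2 (0.25) and Egfr (0.27), with adjusted p from 0.0162 to 0.0434. For Egfr and Gfra2 this was 1 probe set each, and the other probe set of each gene was not called. In 14 of the 15 the slopes of the genotypes had opposite signs, many of them with a normal slope near 0. The slope of Hs6st2, for example, was 0.23 in mutant and -0.02 in normal retinas. In 12 the mutant slope itself had passed, against 6.66% of all probe sets. The 15 were chosen for a difference between slopes, which favours both counts, so these are a description. The share with opposite signs over all probe sets was not counted. No slope of normal retinas passed in limma (100 at an unadjusted p under 0.05).

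From 2 to 3 months 2 probe sets differed (0.161%). Tgfbr3, a TGF-beta co-receptor that is also a proteoglycan, read 0.80 in mutant and -0.64 in normal retinas (difference 1.44 ± 0.25, adjusted p = 0.0173). Igfbp5, which binds insulin-like growth factors, read 0.69 and -0.62 (1.31 ± 0.26, adjusted p = 0.0330). In normal retinas of 2 months Tgfbr3 read 7.28, 8.03 and 7.95 and Igfbp5 8.76, 9.67 and 9.54, against 6.89 to 7.32 and 8.58 to 9.03 in the other normal arrays. Replicates 2 and 3 of that group, which stand apart here, also had high Dcn signals (6.45 and 6.90), and the part of this in the result was not tested.

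All 20 differences kept their sign with arrays centred or quantile normalized, where 20 and 13 passed. Without the 3 arrays of high Grifin signal they kept their sign too, and none passed.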

How the results depend on the processing

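Counts are given in the order 4 minus 1, 2 minus 1, 3 minus 2, 4 minus 3 months, slope, normal 4 minus 1 month, the genotype difference of that change and of the slope, which were 33, 45, 134, 0, 83, 0, 3 and 15. Counts that moved by over 1.5 times were as follows. With array weights they were 94 (4 minus 1), 91 (2 minus 1), 134 (slope), 26 (normal), 81 and 87 (genotype differences). With only the groups compared they were 25 (2 minus 1), 5 (3 minus 2), 1 (normal) and 12 (genotype difference), and with only the 12 mutant arrays 18, 27, 80 and 51 (slope). At an adjusted p under 0.01 they were 6, 10, 47, 26 (slope), 0 and 0, and with a difference of at least 0.5, 19, 18 and 52. Without the 3 arrays of high Grifin signal they were 18 (2 minus 1), 55 (3 minus 2), 0 and 0, and with Grifin and Dcn as covariates 8, 22 and 54 (slope). The genotype difference gave 6 with arrays centred, 15 with quantile normalization and 10 above the median signal, where 2 minus 1 gave 73. An intensity trend gave 1 for normal retinas. Without the arrays of 2 months, chosen after seeing the data, slopes gave 52 and their genotype difference 7. Fits that left out 1 array gave 9 to 35, 5 to 52, 48 to 161, 0 to 2, 24 to 96, 0 to 0, 0 to 24 and 0 to 24. The slope difference was 0 without replicate 3 of normal or replicate 1 of mutant retinas of 1 month, and 24 without mutant replicate 3 of 4 months. With the replicate block, although the numbers do not pair the arrays, counts were 34, 35, 110, 0, 79, 0, 3 and 13. Other counts stayed within 1.5 times. The causes were not tested, apart from fewer arrays or a stricter threshold where the setting says so.

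No value of a named gene reversed in 939 values under other settings or 462 with an array left out, but for many this was fixed in advance. Settings that change only the variance model, the filter or the threshold leave the difference itself as it was. Where the arrays of the ages compared do not overlap, leaving out an array cannot change the sign of their difference. The absence of reversals is thus little test of these values. Of them 170 and 164 lost their call and 1 gained it. The call from 1 to 4 months held in all settings run for Il13ra2 (which the filters on signal remove), Notch2, Egfr, Igf2 and B4galt1. Dim signals limit the folds of Il13ra2, Fgf5 and Icam1, since background is not known.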
